A study of Arabidopsis thaliana with 2 samples.

Results

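Auxin acts on transcription through a short chain of proteins. In its absence Aux/IAA proteins bind auxin response factors (ARFs) and hold their target genes in check through corepressors. Auxin joins an Aux/IAA protein to its F-box receptor through a stretch of the protein known as domain II, and the Aux/IAA is then degraded, which frees the ARF. The genes that respond include the Aux/IAA genes themselves, the small *SAUR* genes and the *GH3* genes, whose enzymes join auxin or other acids to amino acids and so lower the pool of free hormone. In leaves auxin is known to mark sites of outgrowth at the margin and to guide the formation of veins.

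The genes described here are the nuclear genes of these families that could be named on the array. A gene was taken where its symbol is *SAUR*, *IAA*, *ARF* or *GH3* with a number, or where its RefSeq entry carries a family name such as "auxin response factor" or "indole-3-acetic acid inducible". By this rule 11 of the 13265 nuclear genes measured by an unshared probe set were chosen, of which 7 are Aux/IAA genes (*IAA18*, *IAA20*, *IAA29*, *IAA30*, *IAA31*, *IAA33* and *IAA34*) and 4 are *GH3* genes (*GH3.1*, *GH3.3*, *GH3.9* and *GH3.17*). The rule named 0 *SAUR* and 0 *ARF* genes, so these results cover Aux/IAA and *GH3* genes alone. RefSeq holds 74 nuclear genes that fit the rule by symbol or synonym. Of its 16 *SAUR* symbols, its 22 *ARF* symbols and 7 genes known by another symbol, such as *MP* (*MONOPTEROS*, *ARF5*), none had a named probe set, against 7 of its 24 Aux/IAA and 4 of its 5 *GH3* symbols. Of the *ARF* symbols 2 belong to ADP-ribosylation factors, which the pattern also takes. A gene could be found only where a probe set has a gene in the annotation, and 8794 of 22810 probe sets have none. In addition, 11751 of the 13265 genes carry a locus tag alone, and such genes could not be placed in a family by their symbol.

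The tissue came from the margins of mature leaves of plants that overexpress both *miR319a*, a microRNA against *CIN-TCP* genes, and *amiR-NGA*, an artificial microRNA against *NGA* genes, each from the constitutive promoter of cauliflower mosaic virus. Both microRNAs are thus made in most cells of the plant and not in the margin alone. The genotype was taken from the study's methods, since the labels give only the Ler ecotype, the tissue and growth at 23°C with 16 h light and 8 h dark. The group consists of 2 biological replicates, with 1 Affymetrix ATH1 array each and with no other genotype analysed here. Every value is therefore a level in these margins, genotypes were not compared, and there are no p-values.

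Each probe set has 1 MAS5 signal per array, an intensity on a linear scale, and both arrays were scaled to the same median. A signal was called above background where it exceeded a bound, the 95th percentile of 6 genes of pollen, anther and root. The bound was 7.21 in replicate 1 and 18.3 in replicate 2. Of the listed markers, 4 of 8 for leaf mesophyll, 2 of 10 for lamina growth and 3 of 5 for dividing cells were measured. All 9 were above the bound in both arrays, beside 60.2% of nuclear genes. They ran from the light-harvesting gene *LHCB4.1* (2105 and 3713) to the spindle checkpoint gene *BUBR1* (54.8 and 43.5). The shoot meristem gene *CLV3*, the only 1 of 4 such markers measured, was below the bound in both arrays at 5.32 and 1.69. None of the listed provascular markers had a named probe set. The 4 pollen and anther genes lay at 0.174 to 4.21. Of the 2 root genes, *EXPA7* lay at 1.69 and 12.1 and *EXPA18* at 8.42 and 20.4. *EXPA18* is the highest of the 6 genes in both arrays, and the bound rests mainly on it. It therefore exceeds the bound by construction and the other reference genes fall below it, so their places do not check the bound. All 11 auxin genes were measured by 1 plain probe set each. Probe sets differ in brightness, so a signal is not a transcript number that can be set against that of another gene.

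Of the 11 genes, 3 were above background in both arrays, namely *IAA18*, *IAA30* and *GH3.3*, which is 27.3% against 60.2% of all nuclear genes. Among nuclear genes that have a symbol of their own, as all 11 do, the share was 72%. Another 5 genes (*IAA20*, *IAA29*, *IAA31*, *GH3.9* and *GH3.17*) were above the bound in replicate 1 and not in replicate 2, as were 10.2% of nuclear genes. As deposited, the signals of *IAA20*, *IAA31* and *GH3.9* were higher in replicate 2, and those of *IAA29* and *GH3.17* lower. The call alone gives no direction, since the bound was 7.21 in replicate 1 and 18.3 in replicate 2. The remaining 3 (*IAA33*, *IAA34* and *GH3.1*) were above it in neither array, as were 28.7% of nuclear genes. Counted in each array alone, 8 of the 11 genes exceeded the bound in replicate 1, against 70.4% of nuclear genes, and 3 in replicate 2, against 61%. In a strip of whole tissue, fewer cells that express a gene and less RNA per cell cannot be told apart. The bound rests on few genes. Without *EXPA7* and *EXPA18* the bound was 3.28 in replicate 1 and 3.89 in replicate 2, and 10 of the 11 genes, all but *GH3.1*, exceeded it in both arrays, against 77.8% of nuclear genes.

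**Figure D1:**
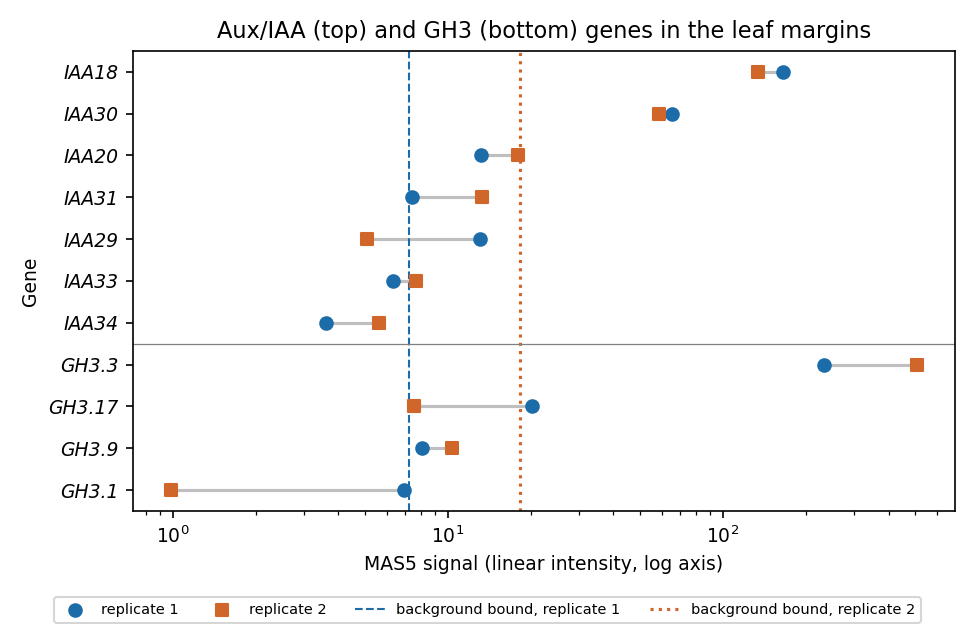
MAS5 signal (log axis) of the 7 Aux/IAA and 4 *GH3* genes, with replicate 1 as circles, replicate 2 as squares and the background bound of each array as a vertical line. *IAA18*, *IAA30* and *GH3.3* lie right of both lines, and *IAA20* falls just short of the bound in replicate 2 (18.0 against 18.3).

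Of the 7 Aux/IAA genes, 2 exceeded the bound in both arrays, beside 60.2% of nuclear genes. Counted in each array alone, 5 did so in replicate 1, against 70.4% of nuclear genes, and 2 in replicate 2, against 61%. *IAA18* (AT1G51950, chromosome 1), whose dominant mutations in domain II disturb cotyledon and root development, had signals of 165 in replicate 1 and 134 in replicate 2, or 149.5 ± 22.5 (SD, n = 2). This placed it at or above 80.8% of nuclear genes in replicate 1 and 76.0% in replicate 2. *IAA30* (AT3G62100, chromosome 3) had signals of 65.5 and 58.8, or 62.1 ± 4.75 (SD, n = 2). Its place was 60.0% in replicate 1 and 58.3% in replicate 2, so the arrays agree closely on its rank. Both genes differed by less than 2-fold between the arrays, at 1.24-fold for *IAA18* and 1.11-fold for *IAA30*.

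*IAA30* belongs with *IAA20*, *IAA31*, *IAA33* and *IAA34* to the Aux/IAA genes whose proteins lack a complete domain II. Of these 5 genes, *IAA30* was the only one above the bound in both arrays, beside 60.2% of nuclear genes. *IAA20* (AT2G46990, chromosome 2), which like *IAA30* is known as a target of MP in developing veins, stood at 13.2 in replicate 1 and 18.0 in replicate 2, above the bound in the first array and just under it in the second. *IAA20* was the gene nearest to the bound on its outer side, and *IAA30* the nearest of those inside it. *IAA31* (AT3G17600, chromosome 3) was at 7.41 and 13.3, barely over the bound in replicate 1.

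*IAA33* (AT5G57420, chromosome 5), whose short protein is known from the root tip, was at 6.33 and 7.69, and *IAA34* (AT1G15050, chromosome 1), known from the apical hook of seedlings, at 3.62 and 5.63. Neither was above the bound in any array.

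*IAA29* (AT4G32280, chromosome 4), a gene known to rise in shade, had a signal of 13.1 in replicate 1, above the bound, and of 5.08 in replicate 2, below it. The bound of 18.3 in replicate 2 lies above both signals, so neither a difference between the arrays nor its direction was measured.

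Of the 4 *GH3* genes, 1 was above the bound in both arrays, beside 60.2% of nuclear genes. *GH3.3* (AT2G23170, chromosome 2), an enzyme gene that auxin induces quickly and whose product conjugates auxin to amino acids, had signals of 232 in replicate 1 and 509 in replicate 2. Both were far above the bound, and the gene ranked at 87.6% and 95.6% of nuclear genes. The arrays differed by 2.19-fold for *GH3.3*, a log2 ratio of replicate 2 over replicate 1 of 1.13. Among the 7980 nuclear genes above the bound in both arrays, 7.87% were at least 2-fold higher in replicate 2, and the 5th to 95th percentile of the log2 ratio ran from -0.82 to 1.13. *GH3.3* thus lay at the upper end of the spread between these replicates, and after quantile normalization its log2 ratio was 1.01.

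*GH3.17* (AT1G28130, chromosome 1), whose enzyme conjugates auxin to glutamate, was at 20.3 in replicate 1 and 7.56 in replicate 2, above background in the first array alone. With both signals floored at 18.3 its log2 ratio was -0.15. *GH3.9* (AT2G47750, chromosome 2), described by RefSeq as a putative auxin-amido synthetase, was at 8.06 and 10.3, slightly over the bound in replicate 1. *GH3.1* (AT2G14960, chromosome 2) was at 6.94 and 0.981, under the bound in both, so no fold is given for it. *WES1* (AT4G27260), which RefSeq also lists as *GH3.5*, has a symbol outside the rule and was looked up for comparison after the family had been seen. Its signals of 220.3 in replicate 1 and 156 in replicate 2 were both above the bound, and unlike those of *GH3.3* they were lower in replicate 2, by 1.41-fold.

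**Figure D2:**
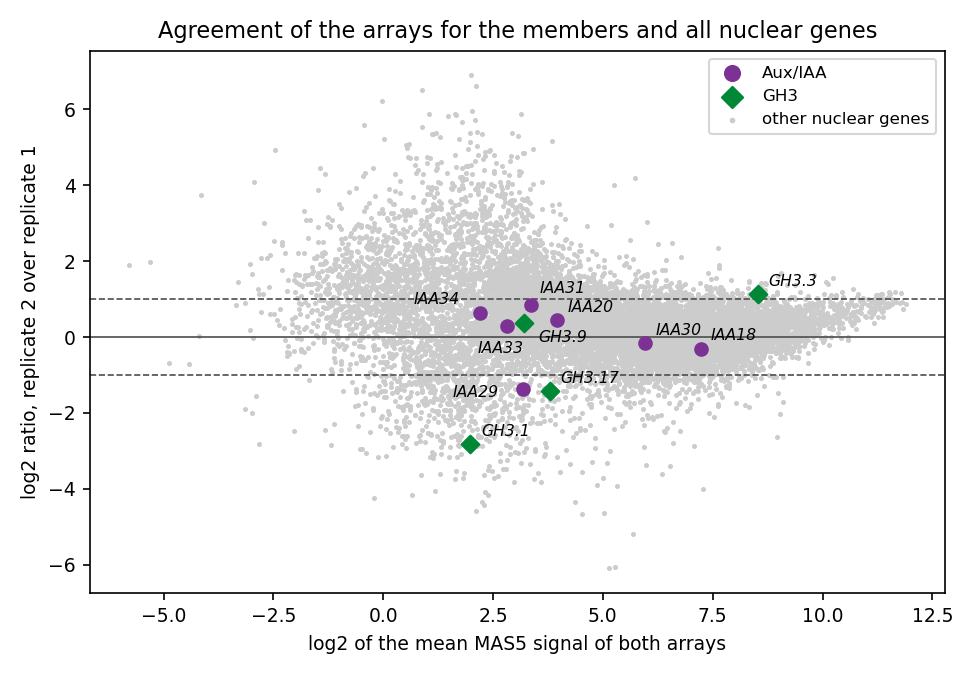
Log2 ratio of replicate 2 over replicate 1 against the log2 of the mean MAS5 signal, for 7 Aux/IAA genes (circles), 4 *GH3* genes (diamonds) and all other nuclear genes (grey), with dashed lines at a 2-fold difference. The spread of the grey points widens at low signal, where 8 of the 11 genes lie, and *GH3.3* is the only bright one of the 11 outside the dashed lines.

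Over all 11 genes the median of the mean signals was 10.3, against 35.8 over all nuclear genes. The medians in the single arrays were 13.1 in replicate 1 and 10.3 in replicate 2, against 34.0 and 36.3 over nuclear genes. Of the 11 genes 6 were higher in replicate 2, and their median log2 ratio was 0.28, beside 0.27 over all nuclear genes. As deposited, the signals of 4 genes (*IAA29*, *GH3.1*, *GH3.3* and *GH3.17*) were at least 2-fold apart, beside 27.3% of all nuclear genes, and all of them but *GH3.3* were below the bound in replicate 2. With signals floored at the higher bound of 18.3, *GH3.3* alone was that far apart, beside 4.89% of nuclear genes. The signal of 3′ over that of 5′ control probe sets, a readout of how intact and how evenly labelled the RNA was, differed for the actin control, at 1.70 against 3.93 in the second array, and for ubiquitin, at 2.01 against 2.89, but hardly for GAPDH, at 1.496 against 1.499. The part of this difference in the ratios above was not tested.

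The 3 genes above background were compared under the other bounds. *IAA18* and *GH3.3* passed all 6 bounds in both arrays. *IAA30* passed 5 of them and missed the one set by the probe sets for *B. subtilis* controls, which was 69.4 in replicate 2 and which 38.7% of nuclear genes passed in both arrays. The count of 3 genes also stood with the highest of the 6 reference genes as the bound (58.5% of nuclear genes), with a list of 9 reference genes (40%) and with the array median (41.8%), and these were the same 3 genes each time. These bounds and that of the *B. subtilis* controls are higher in both arrays than the bound used above. Under them the count could therefore only stay or fall. The only lower bound, without the root genes, gave 10 of the 11 genes.

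**Figure D3:**
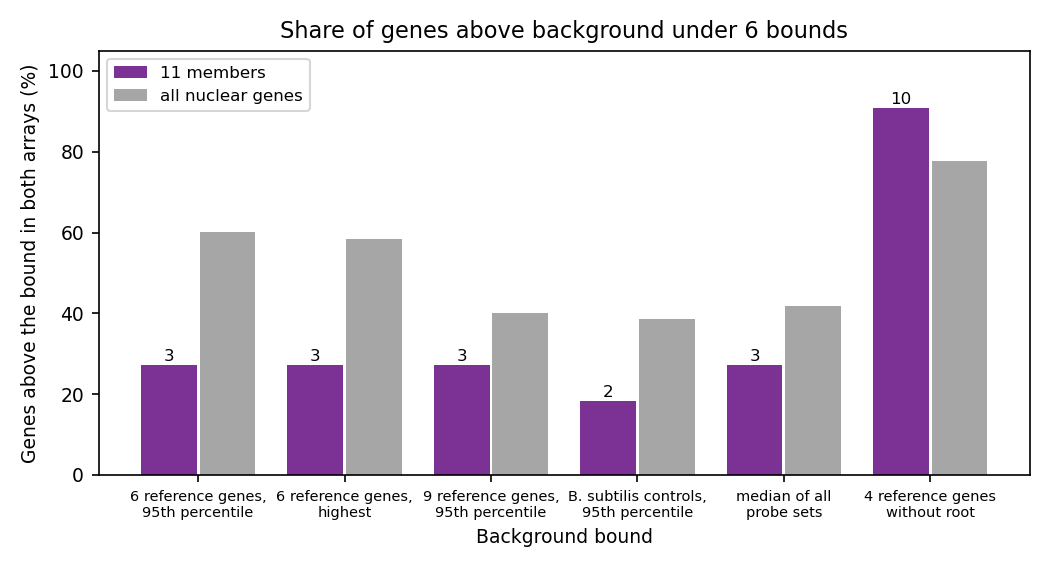
Share of genes above background in both arrays under 6 bounds, for the 11 auxin genes (purple, with the number of genes over each bar) and for all nuclear genes (grey). The share of the auxin genes was lower than that of nuclear genes under 5 bounds, at 18.2% to 27.3%, and higher without the root genes, at 90.9%.

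A list of 98 other genes held those that make, move, sense or inactivate auxin, corepressors, and genes placed among auxin targets and auxin-guided growth. Of these, 9 had a named probe set. Of the 9, 6 exceeded the bound in each array, beside the 60.2% of nuclear genes. None of the 15 synthesis genes and none of the 6 corepressor genes on the list was named. Of 25 transport genes only *WAG2* was, a kinase gene that acts on PIN auxin carriers, and it lay below the bound in both arrays at 5.57 and 13.1. Of 16 genes of perception only *SKP2A*, an F-box gene whose product binds auxin and acts on cell cycle regulators, was named, at 95.8 in replicate 1 and 143.7 in replicate 2, above the bound in both.

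Of the genes that inactivate auxin, *UGT74D1*, a glucosyltransferase gene, was at 246 and 228, above the bound and nearly equal in both arrays. The related *UGT84B1*, whose enzyme also glucosylates auxin, was below it at 3.81 and 1.40. Of 5 measured genes that the list places among auxin targets and auxin-guided growth, 4 exceeded the bound in both arrays, beside 60.2% of nuclear genes. Whether they answer to auxin in these margins was not tested. *ARL* (*ARGOS-LIKE*), which promotes cell expansion in lateral organs, had signals of 319.9 and 275, and the auxin-inducible homeobox gene *HAT2* had 70.4 and 37.8. The expansin gene *EXPA8*, whose product loosens cell walls, had 57.2 and 31.9. *LBD16*, a direct ARF target known from lateral root founding, was at 14.5 and 18.6, barely above the bound in replicate 2, while *LBD29*, of the same family, was below it in both at 1.07 and 1.94. Under the bounds from 9 reference genes, the *B. subtilis* controls and the array median, the 6 genes above background fell to the same 3, *SKP2A*, *UGT74D1* and *ARL*.

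**Figure D4:**
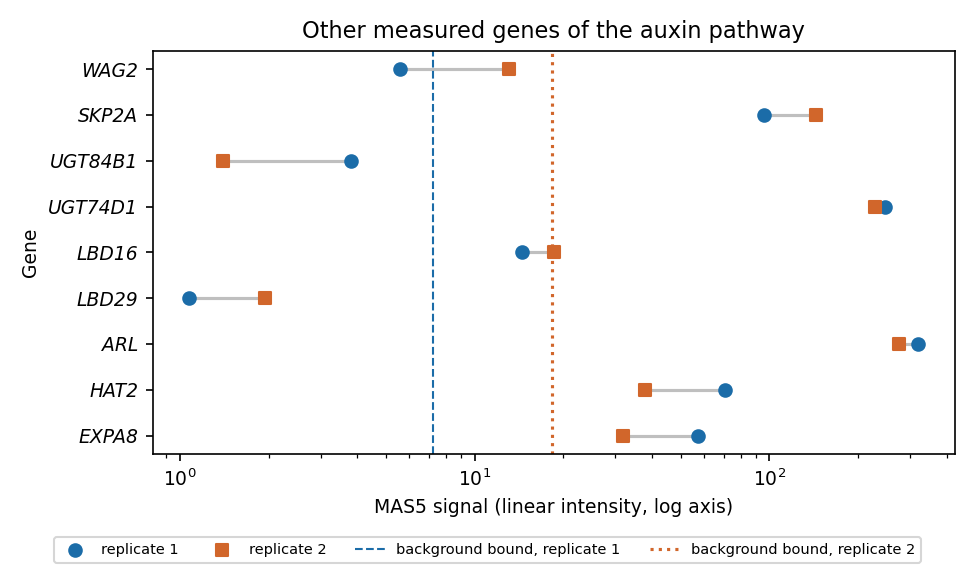
MAS5 signal (log axis) of the 9 other measured genes of the auxin pathway, with replicate 1 as circles, replicate 2 as squares and the background bound of each array as a vertical line. *SKP2A*, *UGT74D1*, *ARL*, *HAT2* and *EXPA8* lie right of both lines, and *LBD16* in replicate 2 lies at the bound (18.6 against 18.3).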

How the data were processed

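RNA of dissected leaf margins was hybridized to Affymetrix ATH1 arrays. The deposited values are intensities on a linear scale, 1 for each probe set, which the authors computed and scaled with MAS5. They come without detection calls. The submitters' processing notes name R 2.7.2. MAS5 signals near background vary widely and carry no error here.

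Of 22810 probe sets, 13513 have 1 gene in the platform annotation, 503 several and 8794 none. RefSeq of the assembly TAIR10.1 gave symbols and family names for 13436 of them and was used for names and chromosomes only. Family names were sought among its synonyms, since no other gene description was at hand. Each of 13265 nuclear genes was represented by its probe set of highest mean signal. The rule placed no probe set of several genes in the 4 families. Promoter and protein sequences were not analysed here. Members, reference genes and lists were chosen with earlier results of these data known. Named genes are all members, every measured gene of the list of other auxin genes, and *WES1*. No test was made. Ratios carry no pseudocount, and a difference was called at 2-fold. Other bounds, quantile normalization, a pseudocount of 16, a floor, other probe sets and single arrays were tried. Python 3.11.15, numpy 2.4.6 and pandas 2.3.3 were used, and the functions were tested on simulated data. With 2 arrays the number of replicates limits the precision of every value.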

Additional observations from a re-analysis of the deposited data

How the results depend on the processing

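No paired analysis was possible because there is 1 group. With a bound without the root genes, 10 of the 11 genes, 7 Aux/IAA and 3 *GH3* genes were above background in both arrays. With the *B. subtilis* controls as the bound 1 Aux/IAA gene remained, *IAA18*. For the other auxin pathway genes the count was 3 with the longer reference list, with the *B. subtilis* controls and with the array median. Over the single arrays the count ranged from 3 to 8 for all 11 genes, from 2 to 5 for Aux/IAA genes, from 1 to 3 for *GH3* genes and stayed at 6 for the other auxin genes, and the median signal of the 11 genes ranged from 10.3 to 13.1. The median of their log2 ratios between the arrays was 0.28 as deposited, -0.24 after quantile normalization, -0.16 over the 3 genes above the bound in both arrays and 0 with signals floored at the higher bound, so it has no settled sign. The low bound, which leaves out reference genes, and the single array, which asks for 1 call in place of 2, can only keep or raise a count. Replicate 2 alone kept every count, and replicate 1 alone raised all but that of the other auxin genes. The cause of the other moves was not tested. The counts of all 11 genes, of Aux/IAA and of *GH3* genes stayed within 1.5 times under quantile normalization and with other probe sets, which are the same for genes measured by 1 probe set. Signals near the bound limit 8 of the 11 genes.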
